A study of Mus musculus with 4 samples.

Results

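Axon-glia adhesion molecules are the cell surface proteins by which a myelinating cell recognises, binds and is organised along an axon. The 10 genes described here were listed by name: Nfasc, Nrcam, Cntn1, Cntn2, Cadm1, Cadm3, Cadm4, Ncam1, Lingo1 and Omg. All 10 were found, with 1 row each, among the 23444 gene symbols of the tables, and 9 of them reached the minimum level set for testing. The RNA came from primary mouse oligodendrocyte precursor cells kept for 1 day in T3, the thyroid hormone that starts their differentiation in culture. There were 4 libraries, all of mixed strain background: 2 knockout libraries with the genotype lncOL1-/-, and 2 control libraries whose label gives lncOL1+/+ and lncOL1+/- together without saying which library is which. The question was which genes differ when the long noncoding RNA lncOL1 is lost. The labels do not say how the allele was made, or whether each library is a different animal or culture. A p-value here thus sets a difference only against the spread between these libraries, in part shared across genes. That spread may be technical. No axons are named in the culture, so levels are those of differentiating cells and not of formed junctions.

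As background, myelinating glia meet the axon in distinct zones. At the paranode, the edge of each myelin segment, a glial form of neurofascin binds a complex of contactin-1 and Caspr on the axon; along the internode, nectin-like proteins of the Cadm family bind across the gap; and contactin-2 organises the juxtaparanode beside the paranode. NCAM holds cells together by binding itself. LINGO-1 and the oligodendrocyte myelin glycoprotein OMgp belong to the Nogo receptor system, which restrains axon growth, and LINGO-1 is also known as a brake on oligodendrocyte differentiation.

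The libraries were checked first. lncOL1, listed as 9630013A20Rik, was at 28.9 and 34.0 FPKM (a count of fragments divided by transcript length and by the number of mapped fragments) in control and at 5.54 and 5.06 in knockout. Of 10 oligodendrocyte markers all were detected, with a summed level of 9414 and 9766 FPKM in control, against 7625 and 7997 in knockout. Mbp, myelin basic protein, was 1 of the 10 and the only one called by the test used below (limma adjusted p = 0.00504). Markers of other cells were also present. The summed level of 6 astrocyte markers was 433 to 488 FPKM over the 4 libraries, and that of 12 neuronal markers was 40.9 to 43.2, most of it Tubb3 and Syn1, with Rbfox3 between 0.0667 and 0.182. The 7 microglial markers summed to 6.16 and 6.22 FPKM in control, against 13.1 and 17.2 in knockout. The 7 fibroblast and vascular markers summed to under 1.74 in every library.

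The positions of Nfasc and Cntn2 show how far levels can differ between neighbours. Nfasc and Cntn2 lie side by side on the minus strand of chromosome 1, with 21433 bases between them in GENCODE (GRCm38, the assembly of mm10), and stood at opposite ends of the ranking given below. Cadm4, on chromosome 7, was the second most abundant of the 10. The 250 bases before an annotated start of each of these 3 genes are shown because the genes mark the top and bottom of the ranking. The sequences are from RefSeq (GRCm38.p6), whose table held windows for 7 of the 10 genes, and are written 5′ to 3′ on the gene's strand. Capitals mark the GC box, GGGCGG, on either strand. For Nfasc the start farthest upstream in that table was used (chr1:132707327-132707576, minus strand), for Cntn2 the window is chr1:132542941-132543190 (minus strand) and for Cadm4 it is chr7:24481773-24482022 (plus strand).
Nfasc: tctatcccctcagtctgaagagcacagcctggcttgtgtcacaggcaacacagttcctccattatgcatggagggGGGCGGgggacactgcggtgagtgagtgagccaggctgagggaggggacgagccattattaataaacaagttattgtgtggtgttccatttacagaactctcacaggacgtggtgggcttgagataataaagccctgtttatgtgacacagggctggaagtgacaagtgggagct
Cntn2: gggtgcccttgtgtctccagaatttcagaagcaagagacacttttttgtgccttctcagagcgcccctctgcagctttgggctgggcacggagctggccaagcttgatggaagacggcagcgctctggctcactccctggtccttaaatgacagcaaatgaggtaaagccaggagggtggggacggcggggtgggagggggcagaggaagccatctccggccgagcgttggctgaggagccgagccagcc
Cadm4: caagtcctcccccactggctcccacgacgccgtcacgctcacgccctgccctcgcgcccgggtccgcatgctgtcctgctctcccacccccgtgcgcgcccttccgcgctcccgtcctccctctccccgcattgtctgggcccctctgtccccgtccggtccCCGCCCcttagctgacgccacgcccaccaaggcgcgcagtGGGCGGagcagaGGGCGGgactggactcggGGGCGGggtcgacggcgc
The Cadm4 window held 4 GC boxes, the Nfasc window 1 and the Cntn2 window 0. Of 32851 RefSeq promoter windows of the same length, 32.7% held at least 1. The share of G and C was 75.2% in the Cadm4 window, above 96.1% of all windows, 61.2% in the Cntn2 window and 52.0% in the Nfasc window, where the median of all windows was 52.4%. The near-silent Cntn2 thus had a window richer in G and C than the abundant Nfasc at this start. The other Nfasc start listed had 50.4% and 0 GC boxes. Both GENCODE and the locus deposited with the FPKM values have Nfasc begin farther upstream, at 132741797. The Nfasc window shown thus lies inside the gene as it was measured. Values per gene do not tell which start these cells use. The TATA box TATAAA, the Sox motif ACAAAG and the Myrf motif CTGGNAC, searched on both strands, were in none of the 3 windows, against 12.4%, 16.5% and 16.1% of all windows. The E-box CANNTG was in the Nfasc and Cntn2 windows, once each, and in 66.2% of all windows. These are matches of letters and not binding sites.

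The 10 genes spanned more than 3 orders of magnitude on the FPKM scale, which is per length and so allows levels to be compared between genes. Nfasc had a mean of 390.01 FPKM over the 4 libraries and ranked 131 among the 11361 genes tested. Cadm4 followed with 303 FPKM at rank 173. Ncam1 (92.4), Cadm1 (74.6), Cadm3 (60.5), Cntn1 (50.1), Omg (49.2) and Nrcam (33.4) formed a middle group, each above at least 80.3% of the genes tested. Lingo1 was low at 4.87 FPKM, above 26.98% of the genes tested. Cntn2 was at 0.202 FPKM, below the minimum mean of 1 FPKM, and was not tested. Within the control group the order was Nfasc, Cadm4, Ncam1, Cadm1, Cadm3, Cntn1, Omg, Nrcam, Lingo1 and Cntn2, and the ranges of neighbouring genes overlapped only for Ncam1 and Cadm1. In the knockout group Cadm3 stood above Cadm1 and Omg above Cntn1, and the ranges overlapped only for Cadm3 and Cadm1. The summed FPKM of the 10 genes was 1148 and 1098 in control and 992 and 996 in knockout, of which Nfasc made up 38.8% and 39.9% in control and 33.9% and 34.1% in knockout. Without Nfasc the sums were 702 and 660.3 against 656 and 656. The 2 control libraries lay above both knockout libraries with or without Nfasc. Without it, however, control replicate 2 was much closer to the knockout libraries than to control replicate 1.

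**Figure D1:**
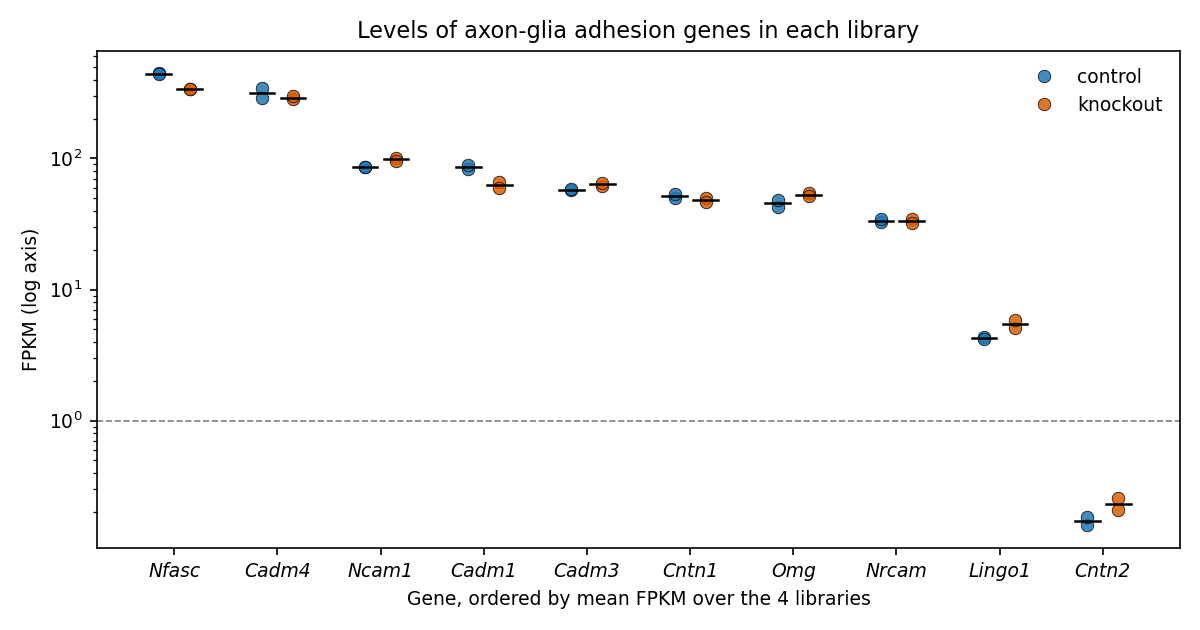
FPKM (log axis) of each of the 10 genes in the 2 control and 2 knockout libraries, with each point a library and each short line a group mean, and a dashed line at 1 FPKM. Nfasc and Cadm4 stand at 282 FPKM or more in every library and Cntn2 at 0.258 or less.

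No member of the group passed the test between knockout and control. Of the 9 tested, 0 were called higher and 0 lower (limma, adjusted p under 0.05 over 11361 genes). Of all genes 1.31% were called, 0.528% higher and 0.783% lower. By an unadjusted limma p under 0.05, 3 members were higher and 2 were lower, against 13.7% of all genes, 7.13% higher and 6.58% lower. The 5 are Nfasc and Cadm1, with lower values, and Ncam1, Lingo1 and Omg, with higher values. Of the 8 members with a completed test in the authors' deposited table, 2 were significant, both lower (Cadm1 and Cadm4), where 5.78% of all genes were significant and 4.04% were significant and lower. In 7 of the 9 tested genes the 2 groups did not overlap, 4 higher and 3 lower, where that held for 43.4% of all genes, 22.6% higher and 20.7% lower. With 2 libraries against 2, an exact permutation test of 1 gene cannot go below p = 0.333, so the limma fit, which shares the spread across genes, is the test given. The median difference over the 9 was -0.012 on the log2(FPKM + 1) scale, beside 0.0046 for all genes tested.

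**Figure D2:**
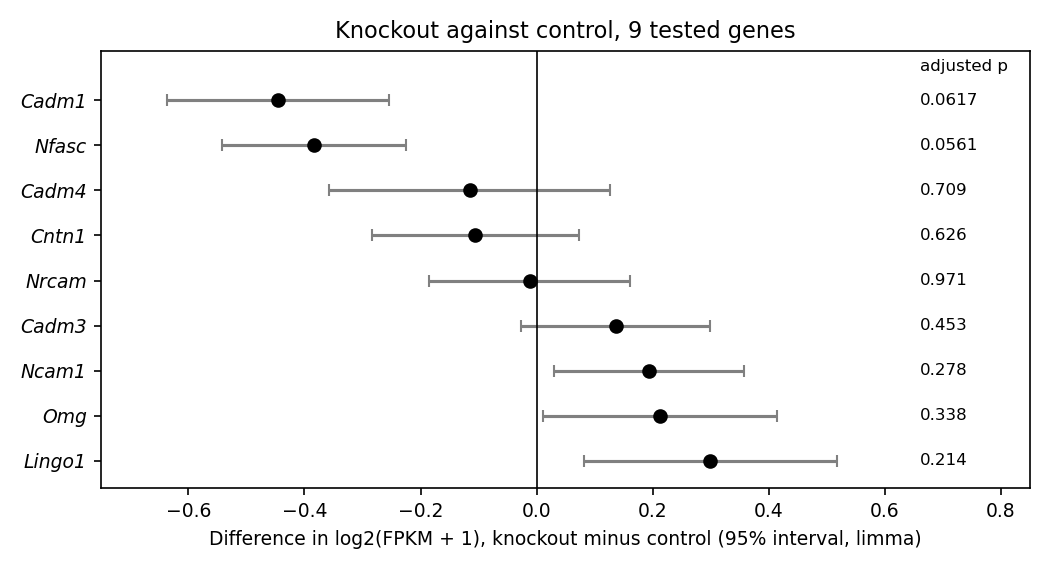
Difference in log2(FPKM + 1), knockout minus control, for the 9 tested genes, with 95% intervals and adjusted p from limma. Cadm1 and Nfasc lie at -0.45 and -0.38 with intervals below 0, Ncam1, Omg and Lingo1 lie at 0.19 to 0.30 with intervals above 0, and no adjusted p is under 0.05.

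Among the paranodal and nodal molecules, Nfasc had the largest difference in FPKM. Nfasc encodes neurofascin, an immunoglobulin superfamily protein of the L1 family whose glial form sits in the paranodal loops of myelin and whose neuronal form sits at the node. It was at 446 and 437 FPKM in control and at 337 and 340.04 in knockout. Both knockout libraries were lower than both control libraries, and the 2 libraries of each group lay close together. The mean went from 442 ± 5.95 to 338 ± 2.37 (SD, n = 2 each), or 76.6% of control. The difference was -0.38 on the log2(FPKM + 1) scale (SE 0.066, 95% interval -0.54 to -0.22, limma adjusted p = 0.0561), just outside the threshold. It ranked 168 by p among all genes, beside 149 that were called. The call depended on the setting: the adjusted p was 0.0416 with a pseudocount of 0.1, 0.0386 after rescaling to TPM, 0.0361 after quantile normalization and 0.0130 with the replicate number as a block, but 0.165 with no filter on low values. The authors' deposited table lists pooled levels of 492 and 359 FPKM for Nfasc, but marks its test as failed, so its p-value of 1 is no result. The gene spans 132564690 to 132741797 on chromosome 1 (mm10, minus strand) and has 6 protein-coding transcripts in GENCODE. The values are per gene, so the glial and neuronal forms were not separated.

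Cntn1 encodes contactin-1, a lipid-anchored immunoglobulin superfamily protein that binds neurofascin from the axonal side and is also made by oligodendrocytes. Its values were 50.1 and 53.7 FPKM in control, against 49.7 and 46.7 in knockout. The groups did not overlap, but the gap between control replicate 1 and knockout replicate 1 was smaller than the spread within either group. The difference was -0.11 (SE 0.075, 95% interval -0.28 to 0.073, limma adjusted p = 0.626). It was -0.056 without control replicate 2 and -0.062 without knockout replicate 2.

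Nrcam, an L1 family relative of neurofascin that acts at the node of Ranvier, was at 32.9 and 34.3 FPKM in control and at 34.5 and 32.2 in knockout. The groups overlapped. The difference was -0.012 with a 95% interval of -0.19 to 0.16 (limma adjusted p = 0.971), and its sign turned without control replicate 2 (0.018) and without knockout replicate 2 (0.036). The ratio of Nfasc to Nrcam within a library, which does not depend on the scaling between libraries, was 13.6 and 12.8 in control and 9.77 and 10.6 in knockout. This ratio and those below were chosen after the values were seen and were not tested.

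Cntn2 encodes contactin-2, also called TAG-1, which holds the juxtaparanodal complex together. It was at 0.159 and 0.185 FPKM in control and at 0.208 and 0.258 in knockout. All 4 values are low and the number of reads behind them is not in the files, so no fold is drawn from them. Cntnap1, which encodes Caspr, the axonal partner of contactin-1, was also low, at 0.213 and 0.123 FPKM in control libraries and 0.226 and 0.288 in knockout libraries.

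The 3 Cadm genes, which encode nectin-like adhesion proteins with immunoglobulin domains, gave 3 different pictures. Cadm1, whose protein binds itself and other family members and is also known from synapses, was at 83.6 and 88.6 FPKM in control and at 66.3 and 59.7 in knockout. Both knockout libraries were below both control libraries. The mean went from 86.1 ± 3.55 to 63.0 ± 4.63 (SD, n = 2 each), or 73.2% of control, with a difference of -0.45 (SE 0.080, 95% interval -0.64 to -0.25, limma adjusted p = 0.0617). The call again depended on the setting: the limma adjusted p was 0.0482 after rescaling to TPM and 0.0204 with the replicate block. It was 0.0519 with a pseudocount of 0.1, 0.0750 after quantile normalization and 0.149 with no filter on low values. The authors' deposited table gives 86.3 and 62.4 FPKM with a log2 fold change of -0.47 and q = 3.13e-09.

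Cadm4 is the family member known from the glial side of the internode. It was at 345 and 287 FPKM in control and at 282 and 299 in knockout. The knockout libraries lay on either side of control replicate 2, so the groups overlapped, and control replicate 1 stood above the other 3 libraries. The difference was -0.12 (SE 0.10, 95% interval -0.36 to 0.13, limma adjusted p = 0.709), and it was 0.018 without control replicate 1 and -0.25 without control replicate 2. The authors' deposited table has Cadm4 significantly lower, with pooled levels of 289 and 244 FPKM, a log2 fold change of -0.24 and q = 0.00378. Its pooled knockout level of 244 FPKM lies below both knockout libraries, and its pooled control level lies near the lower control library. Pooled levels depart from the libraries in other genes too. In control, Olig1 has 303 pooled against 509 and 507, and Nfasc 492 against 446 and 437. Pooled and library levels are thus not directly comparable, and the library values of Cadm4 show no separation of the groups.

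Cadm3, known as an axonal partner of Cadm4, was at 57.1 and 58.1 FPKM in control and at 61.99 and 64.9 in knockout. The groups did not overlap. The difference was 0.14 (SE 0.068, 95% interval -0.026 to 0.30, limma adjusted p = 0.453). The ratio of Cadm1 to Cadm3 within a library was 1.46 and 1.52 in control and 1.07 and 0.921 in knockout. GENCODE places the end of Cadm3 over Ackr1 on the same strand, with 361 exonic bases in common. The locus deposited with the FPKM values has Cadm3 end earlier, at 173334254. Ackr1 spans 173331886 to 173333750 in GENCODE, so these shared bases lie outside the deposited Cadm3 locus.

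Ncam1 encodes the neural cell adhesion molecule NCAM, which binds itself between cells and in precursors carries polysialic acid. Its values were 86.3 and 85.99 FPKM in control, against 101 and 96.1 in knockout. Both knockout libraries were higher than both control libraries. The mean went from 86.1 ± 0.211 to 98.7 ± 3.69 (SD, n = 2 each), or 115% of control, with a difference of 0.19 (SE 0.068, 95% interval 0.030 to 0.36, limma adjusted p = 0.278). The authors' deposited table gives q = 0.282. Ncam1 and Cadm1 had nearly the same level in control, with ratios of Cadm1 to Ncam1 of 0.969 and 1.03, and differed in knockout, with ratios of 0.654 and 0.622. An antisense gene, Gm11149, shares 417 exonic bases with Ncam1, and no source used here says whether counting used the strand, so reads of the pair cannot be told apart. St8sia2 and St8sia4, the enzymes that build polysialic acid on NCAM, were at 0.0524 to 0.162 FPKM over the 4 libraries.

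Lingo1 and Omg, the members of the Nogo receptor system, both had higher values in knockout and neither passed the test. Lingo1, a leucine-rich repeat receptor, was at 4.36 and 4.16 FPKM in control and at 5.07 and 5.90 in knockout. The groups did not overlap, and the knockout libraries were farther apart than the control libraries. The mean went from 4.26 ± 0.142 to 5.49 ± 0.587 (SD, n = 2 each), or 129% of control, with a difference of 0.30 (SE 0.091, 95% interval 0.081 to 0.52, limma adjusted p = 0.214). The authors' deposited table gives a log2 fold change of 0.27 with q = 0.444.

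Omg, which encodes a lipid-anchored ligand of the Nogo receptor found on oligodendrocytes and neurons, was at 42.7 and 48.4 FPKM in control and at 54.3 and 51.3 in knockout. The groups did not overlap. The difference was 0.21 (SE 0.084, 95% interval 0.010 to 0.41, limma adjusted p = 0.338), and 0.12 without control replicate 1. Omg lies on the minus strand of chromosome 11 (79500982 to 79504082, mm10), wholly within intron 36 of the 58-exon transcript of Nf1 on the plus strand, with 0 exonic bases in common. Without a stated strand setting, unspliced Nf1 RNA cannot be told apart from Omg here. Nf1 itself was at 16.2 and 17.98 FPKM in control and at 16.9 and 17.3 in knockout. For Omg the authors' deposited table has pooled levels of 53.3 and 61.8 FPKM, with q = 0.360.

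**Figure D3:**
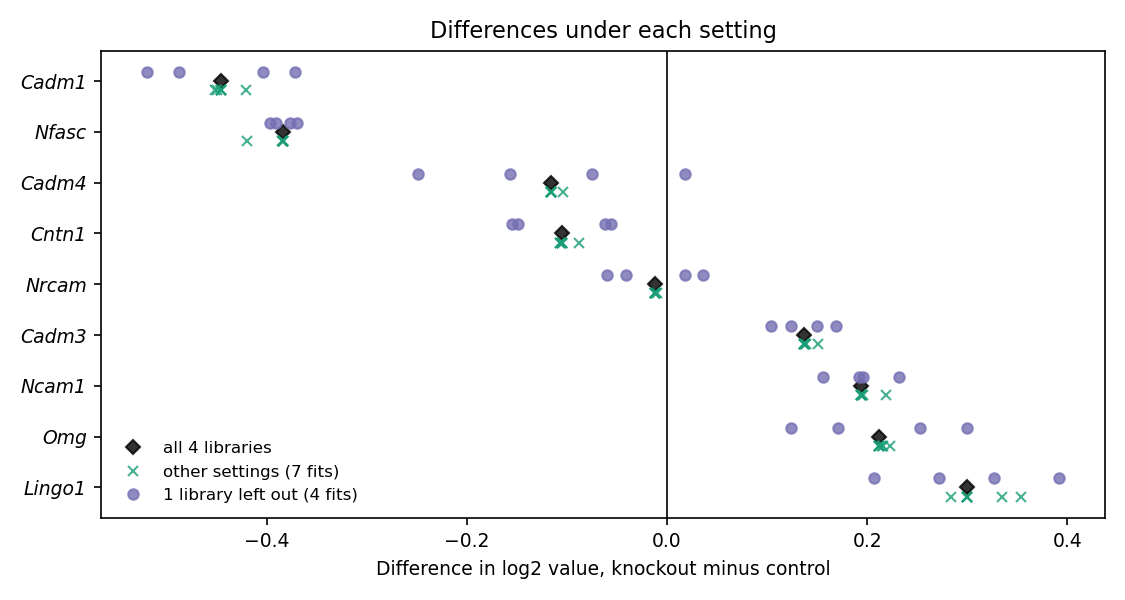
Difference in log2 value, knockout minus control, for the 9 tested genes with all 4 libraries, with each library left out in turn (4 fits) and under 7 other settings. Cadm1 and Nfasc stay at -0.37 or lower and Cadm3, Ncam1, Omg and Lingo1 at 0.10 or higher in every fit shown, while Cadm4 and Nrcam cross 0 when a library is left out.

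The 2 members with the smallest p, Nfasc and Cadm1, were lower in libraries where Mbp, a marker of maturing oligodendrocytes, was also lower, at 2683 and 2655 FPKM in control, against 1501 and 1520 in knockout. The whole list of 10 oligodendrocyte markers had 5 positive and 5 negative differences, with a median of -0.071. Among those with higher values and no overlap of the groups were Olig2 (0.20), Mog (0.18) and Gpr17 (0.15), none called by limma. Of 5 precursor markers 4 had positive differences and 1, Pdgfra, a negative one (-0.16, no overlap of the groups), where 48.6% of all genes were negative. Their median was 0.083 and limma called 0. By an unadjusted limma p under 0.05, 2 were higher, Pcdh15 (0.38) and Cspg4 (0.26), where 7.13% of all genes were. The authors' deposited table lists Pcdh15 as higher, where 1.74% of all genes were. The summed precursor markers overlapped between the groups, at 227 and 254 FPKM in control, against 249 and 243 in knockout. The summed microglial markers were higher in the knockout libraries, at 13.1 and 17.2 against 6.16 and 6.22 FPKM. Limma called 2 of the 3 tested ones higher, where 0.528% of all genes were. All 6 tested astrocyte markers had negative differences, as did 48.6% of all genes, with a median of -0.13. Limma called 0 of them, and 2 were lower by an unadjusted limma p under 0.05, where 6.58% of all genes were. The authors' deposited table lists 3 of the 6 as lower (Gfap, Gja1 and Slc1a2), where 4.04% of all genes were. The part of these cell type differences in the values of the 10 genes was not tested. In bulk RNA, fewer cells of a type and less RNA per cell cannot be told apart.

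Other genes of axon-glia contact were read from a list of 28 relatives and partners, of which 27 were in the tables and 19 were tested. By limma 0 were called in either direction. By an unadjusted limma p under 0.05, 3 were higher and 2 were lower, where 7.13% and 6.58% of all genes were. The median difference was 0.070. Mag, the myelin-associated glycoprotein that faces the axon along the internode, was the most abundant, at 501 and 472 FPKM in control and at 354 and 374 in knockout. Its difference was -0.42 (SE 0.073, limma adjusted p = 0.0579), close in size to those of Nfasc and Cadm1. The authors' deposited table lists Mag as significant, with a log2 fold change of -0.54. Cntn3, a contactin relative, went the other way, from a mean of 4.42 ± 0.591 FPKM to 6.97 ± 0.163 (SD, n = 2 each), with no overlap of the groups, a difference of 0.56 (SE 0.095, limma adjusted p = 0.0543). Itgb1, the integrin beta-1 subunit, was at 128 and 126 FPKM in control and at 127 and 116 in knockout (difference -0.064, limma adjusted p = 0.805). Of the 21 relatives with a completed test in the authors' deposited table, Cntn3 and L1cam were significantly higher and Mag and Chl1 significantly lower, where 1.74% of all genes were higher and 4.04% lower. Named after their values were seen, L1cam and Chl1, both of the L1 family that includes Nfasc and Nrcam, had differences of 0.40 and -0.22 (limma adjusted p = 0.0823 and 0.262).

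The Nogo receptor system beyond Lingo1 and Omg held 9 tested genes of 14 listed, and limma called 0 in either direction. By an unadjusted limma p under 0.05, 0 were higher and 1 was lower, where 7.13% and 6.58% of all genes were. The receptor gene Rtn4r itself was between 0.274 and 0.631 FPKM and Ngfr, a co-receptor, between 0.0902 and 0.181, so neither was tested, while the alternative co-receptor Tnfrsf19 was at 19.1 to 20.4 FPKM. Rtn4, which encodes Nogo, was at 143 and 153 FPKM in control and at 126 and 124 in knockout (difference -0.24, SE 0.071, limma adjusted p = 0.205). Rhoa and Arhgdia, of the downstream GTPase switch, had differences of -0.10 and 0.0092, and the kinase gene Rock1 of -0.14 (limma adjusted p = 0.610, 0.978 and 0.556). The median of the list was -0.080.

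The scaffold that anchors these molecules under the membrane also showed no call in either direction by limma among 13 tested genes of 15 listed, and a median of 0.0055. By an unadjusted limma p under 0.05, 3 were higher and 1 was lower, where 7.13% and 6.58% of all genes were. Ank3, ankyrin-G, which binds the tails of the L1 family, was at 32.9 and 32.6 FPKM in control and at 28.3 and 25.1 in knockout (difference -0.29, limma adjusted p = 0.181). Its relative Ank2, ankyrin-B, was at 28.8 and 29.0 FPKM in control and at 35.04 and 33.7 in knockout (difference 0.24, limma adjusted p = 0.178). In neither gene did the groups overlap. The authors' deposited table lists both as significant, Ank3 lower with q = 0.000455 and Ank2 higher with q = 0.0144. Fyn, a kinase downstream of several of these receptors, and Epb41l2, a band 4.1 protein, had differences of 0.055 and 0.022 (limma adjusted p = 0.836 and 0.957).

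All 4 enzymes listed that cut such proteins at the cell surface or in the membrane had negative differences, as did 48.6% of all genes. Their median was -0.044, and limma called 0. By an unadjusted limma p under 0.05, 0 were higher and 1 was lower, where 7.13% and 6.58% of all genes were. Bace1, beta-secretase, was at 113 and 111 FPKM in control and at 92.7 and 92.3 in knockout (difference -0.27, SE 0.065, limma adjusted p = 0.129). The authors' deposited table lists Bace1 as lower with q = 3.42e-06. Adam10 and Adam17, the sheddases, had differences of -0.0052 and -0.059 (limma adjusted p = 0.986 and 0.862).

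**Figure D4:**
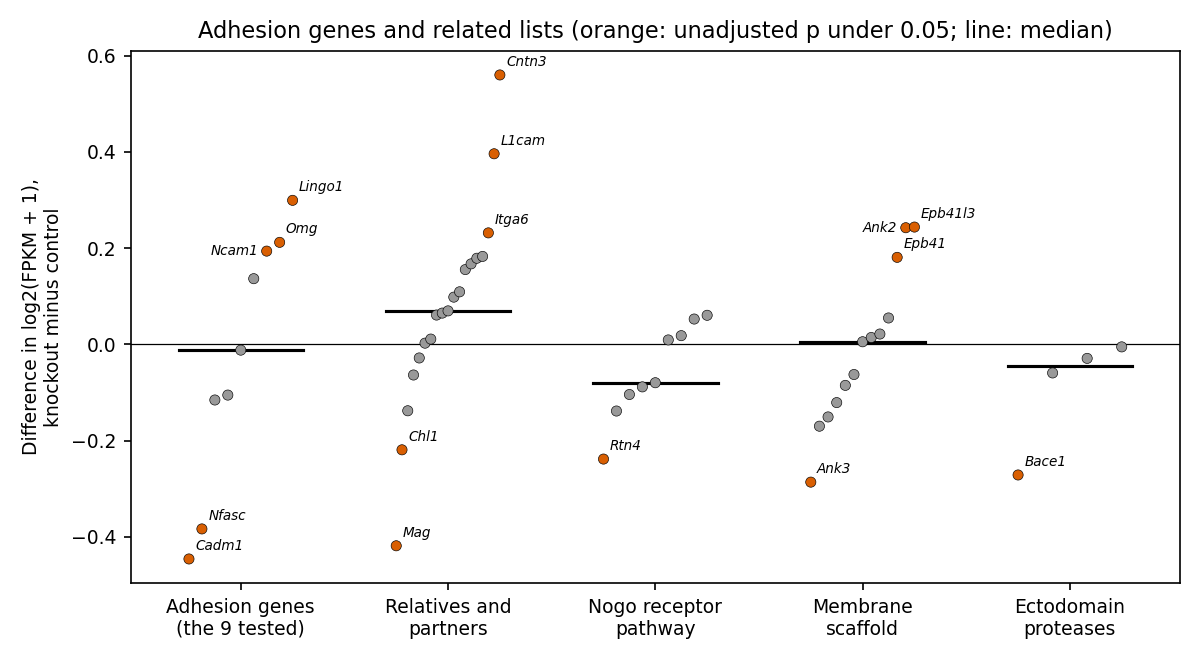
Difference in log2(FPKM + 1), knockout minus control, for the tested genes of the adhesion group and of 4 related lists, with each point a gene, orange points at an unadjusted limma p under 0.05 and the line at the median of the list. Medians lie between -0.080 and 0.070 and no gene passed at an adjusted p under 0.05.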

How the data were processed

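Each library had 1 table of gene-level FPKM, which the authors computed and deposited, and a status for every row, per the file headers. The build mm10 and the tools TopHat, Cufflinks, Cuffdiff and CASAVA are named in the submitters' processing notes, which give no versions, annotation or strand setting. The authors' deposited Cuffdiff table adds, for every gene, 1 pooled FPKM per group, a log2 fold change, a score (the test statistic), and p-values and q-values, per the file headers. Read depth is not in the files, so the spread between libraries limits precision. Summed FPKM was 373484 to 383128.

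Rows of 1 symbol were summed, and 9 symbols not marked OK in some library were dropped. The 11361 genes whose mean reached 1 FPKM were fitted as log2(FPKM + 1) with limma 3.58.1 in R 4.3.3 (lmFit, eBayes with trend, 2 residual and 4.6 prior degrees of freedom), knockout minus control. Benjamini-Hochberg adjustment ran over all 11361 genes. The log2(FPKM + 1) scale understates changes of low genes. List symbols were matched directly or, for 7, by a RefSeq synonym, and Cadm2 was not analysed here. Another gene of the list of relatives is not reported here and was left out of its counts. Beyond the 10 members, a related list's called genes, its 2 most abundant and its 2 with the smallest p are named. Genes of these lists named outside that rule are Cntnap1, St8sia2, St8sia4, Rtn4r, Ngfr, Tnfrsf19, L1cam and Chl1. The members and lists were chosen with earlier results of these data known. Alternatives were another pseudocount, no filter, TPM scaling, quantile normalization, each library left out, a replicate block, the highest row per symbol and no trend. As a check on shared reads, 50-base stretches of each member's GENCODE transcripts were searched in all other genes. Outside overlapping genes, at most 0.991% (Cntn1) were found elsewhere.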

Additional observations from a re-analysis of the deposited data

How the results depend on the processing

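The 9 tested members gave 0 calls in either direction with all 4 libraries. With a pseudocount of 0.1, after quantile normalization, after TPM scaling and with the replicate block, 1, 1, 2 and 2 members were called lower. Of all 11361 genes, 116, 95, 115 and 183 were called lower in these settings, and 85, 64, 80 and 158 higher. Nfasc was called in all 4 settings (limma adjusted p 0.0130 to 0.0416), and Cadm1 with TPM scaling and the block. Among relatives, 1 gene (Mag) was called lower in these 4 settings, and 1 (Cntn3) higher in all but quantile normalization. The other lists had 0 calls in every setting. The replicate numbers do not pair the libraries by the labels, and deviations of same-numbered libraries correlated at r = -0.052 across 11361 genes, which are not independent replicates. Over all genes, calls went from 60 higher and 89 lower to 158 and 183 with the block, and to 1 and 3 with no filter, where 17397 genes were tested. With each library left out in turn, calls over all genes were 18 to 36 higher and 15 to 39 lower, with 0 members called. Such fits leave 1 library in a group, assumed to vary like the others. The adjusted p was then 0.206 to 0.261 for Nfasc and 0.140 to 0.288 for Cadm1. Then Cadm4 ranged from -0.25 to 0.018, positive without control replicate 1. Nrcam ranged from -0.060 to 0.036, positive without control replicate 2 (0.018) and without knockout replicate 2 (0.036). The other 7 tested members kept their direction in all 11 alternatives. The cause of these shifts was not tested.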
